A study of Homo sapiens with 2 samples.

Results

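TBC1D5 and 5 core autophagy genes, MAP1LC3B, GABARAPL1, ULK1, SQSTM1 and WIPI1, were examined in the deposited list of FLAG peaks from U87MG, a human glioblastoma cell line. Each gene was taken as a fixed window of hg19, and a peak was counted as its member when the summit, the position of highest pileup, lay in that window. Distances to a 5′ or 3′ end are to the end of the window. How far that end lies from the gene start was not determined. The 6 windows held 8 of the 9717 peaks of the list, 3 in the TBC1D5 window and 1 in each of the others, and none of the 6 genes was without a peak. The genes were chosen with the peak list known, so all peak values below are a description and carry no test.

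The series maps FOXO3 by CETCh-seq, in which genome editing puts an epitope tag, here FLAG, on the endogenous protein, so that an antibody to the tag can be used for chromatin immunoprecipitation. It comprised 2 samples, 1 FLAG immunoprecipitation and 1 input, both from U87MG with the genotype given as WT and both treated with LY294002, which inhibits phosphoinositide 3-kinase. The labels do not say whether the WT label covers the tag, how many edited clones were used, or whether the input came from edited cells, and there was no untreated group. With 1 immunoprecipitated library, no value has a replicate, and each interval is a 95% Poisson interval (exact) of the ChIP tags that covers counting error only. The background estimated by the peak caller was held fixed in every interval, so its own error is left out.

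FOXO3 is a forkhead transcription factor that phosphoinositide 3-kinase signalling, acting through AKT, holds in the cytoplasm, and autophagy genes are among its known targets in muscle and other tissues. Autophagy encloses cytoplasm in a double membrane that fuses with the lysosome. ULK1 is the kinase that starts the process, WIPI1 binds the phosphatidylinositol 3-phosphate of the growing membrane, MAP1LC3B and GABARAPL1 are ubiquitin-like proteins of the ATG8 family that become attached to that membrane, and SQSTM1, also called p62, is a receptor that ties ubiquitinated cargo to them. TBC1D5 is a GTPase-activating protein for RAB7 that binds the retromer, the coat that returns cargo from endosomes, and also binds ATG8 proteins.

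No hg19 sequence was used, so the bases under the peaks are not shown. The promoters of the 6 genes were instead read from RefSeq (GRCh38.p14), where all 6 matched by symbol, with 2 starts for TBC1D5, 3 for SQSTM1 and 1 for each of the others. Forkhead factors recognise the letters GTAAACA and the related GCAAACA, and both contain the core AAACA. Within 250 bases before each start, both strands were searched for the 3 sets of letters. The 4 promoters below show the 3 starts with a match to the core, and the WIPI1 promoter is set beside them because its FLAG summit lay as far into its window as that of GABARAPL1 and it holds no match. Capitals mark AAACA or its reverse complement TGTTT, and each sequence is written 5′ to 3′ on the gene's strand and ends at the base before the start.
GABARAPL1, chr12:10212627-10212876, plus strand: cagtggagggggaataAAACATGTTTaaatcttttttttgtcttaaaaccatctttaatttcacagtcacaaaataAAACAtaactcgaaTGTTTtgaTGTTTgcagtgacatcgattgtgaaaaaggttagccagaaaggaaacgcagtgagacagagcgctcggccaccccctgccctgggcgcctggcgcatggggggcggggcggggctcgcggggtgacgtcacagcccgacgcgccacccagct
SQSTM1, first start, chr5:179806143-179806392, plus strand: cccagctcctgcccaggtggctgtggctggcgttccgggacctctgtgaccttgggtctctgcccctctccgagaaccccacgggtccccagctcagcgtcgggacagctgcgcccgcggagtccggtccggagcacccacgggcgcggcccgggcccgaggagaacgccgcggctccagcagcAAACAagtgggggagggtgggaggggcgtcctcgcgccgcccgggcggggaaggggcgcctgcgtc
TBC1D5, second start, chr3:17740908-17741157, minus strand: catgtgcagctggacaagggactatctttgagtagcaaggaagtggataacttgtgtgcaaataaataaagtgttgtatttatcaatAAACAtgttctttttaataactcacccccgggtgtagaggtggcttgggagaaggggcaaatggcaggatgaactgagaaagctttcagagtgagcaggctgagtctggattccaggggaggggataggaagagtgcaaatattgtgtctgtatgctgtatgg
WIPI1, chr17:68457497-68457746, minus strand: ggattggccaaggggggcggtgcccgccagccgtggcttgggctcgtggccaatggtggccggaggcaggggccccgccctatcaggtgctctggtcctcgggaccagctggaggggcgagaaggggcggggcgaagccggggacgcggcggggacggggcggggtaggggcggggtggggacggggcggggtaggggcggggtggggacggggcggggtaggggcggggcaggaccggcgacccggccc

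The GABARAPL1 promoter held 5 core matches, 2 of which lie side by side in opposite directions, and 1 of the 5 is part of a match to GCAAACA. Of 35116 RefSeq promoter windows, some of which overlap or belong to the same gene, 40.4% held at least 1 core match and 0.533% held 5 or more. The SQSTM1 promoter at the first start held 1 core match, again within GCAAACA, which 3.23% of all windows contain. At TBC1D5 the second start, which lies 1.72 kb downstream of the first, had 1 core match, and the first had none. The promoters of MAP1LC3B, ULK1 and WIPI1 and the other 2 SQSTM1 starts had no match to the core. GTAAACA, present in 2.98% of windows, was found in none of the 9 promoters of the 6 genes. The promoters also differed in GC content, which was 51.6% at GABARAPL1 and 44.4% at the second TBC1D5 start, but between 73.6% and 79.6% at the other 7, against a median of 58.0% over all windows. These letters describe the promoter windows only, and whether any of them lies under a FLAG peak was not analysed here.

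**Figure D1:**
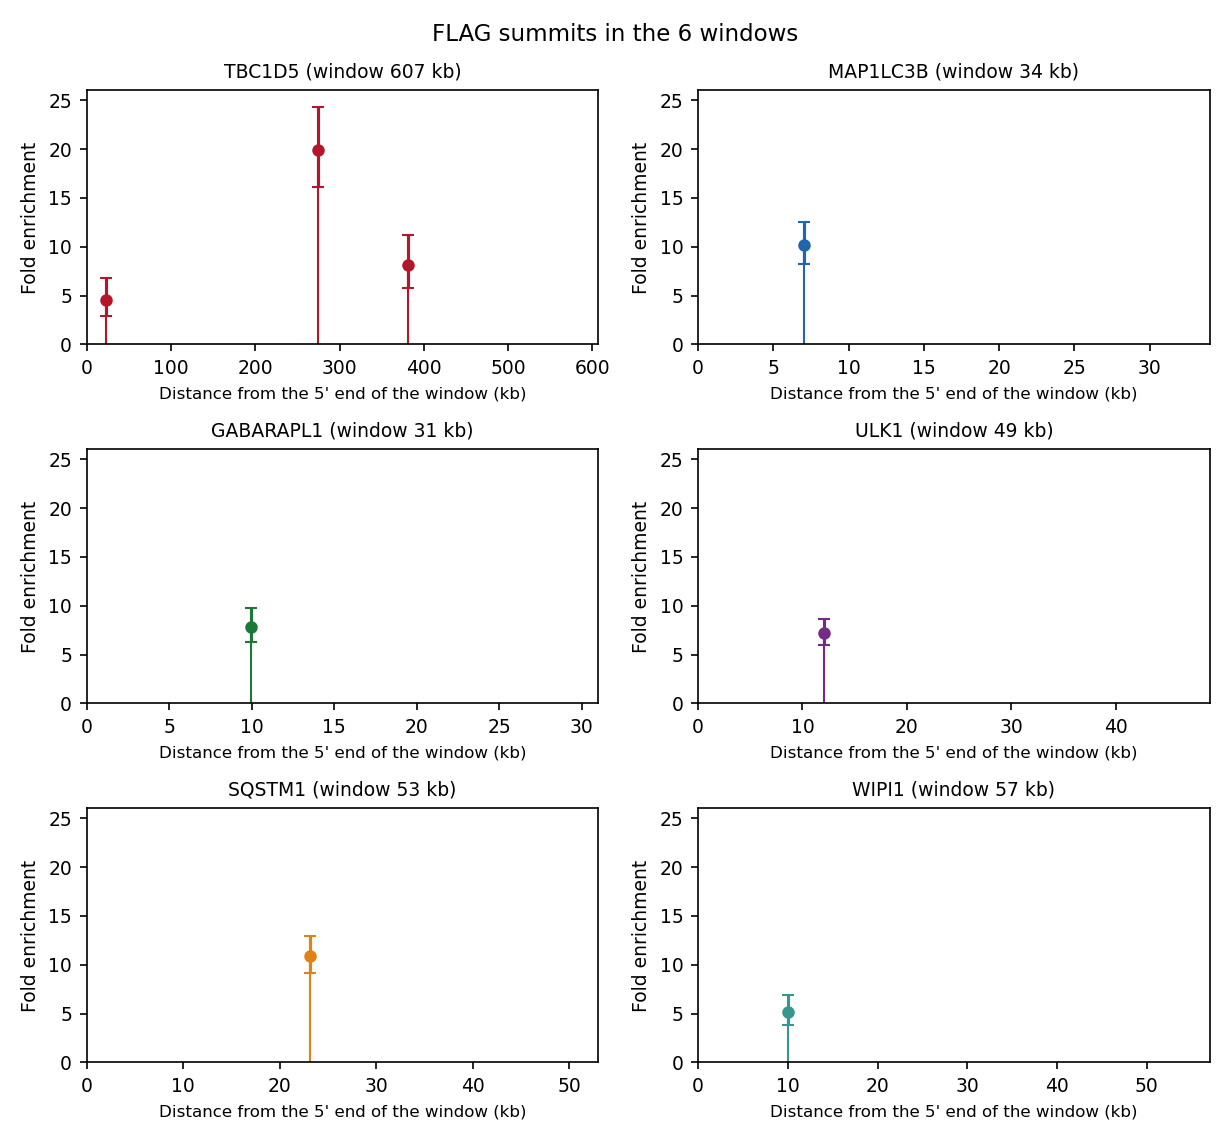
FLAG summits in the windows of the 6 genes, by distance from the 5′ end of the window (kb, x axis, 1 scale per panel) and fold enrichment (y axis). Points are single peaks and bars are 95% Poisson intervals: TBC1D5 has 3 summits, the highest at a fold of 19.9, and each other window has 1.

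The strongest of the 8 by fold lay in the TBC1D5 window (hg19 chromosome 3, 17188000 to 17795000, 607 kb). TBC1D5 is on the minus strand, so its 5′ side is the high-coordinate end. The middle peak ran from 17519989 to 17520640, 652 bp, with its summit at 17520288, which was 275 kb from the 5′ end of the window and 332 kb from the 3′ end. Fold enrichment is the ChIP pileup at the summit over the background estimated by the peak caller, each with 1 tag added. At this summit 93 ChIP tags stood over 3.72 background tags, a fold of 19.9 (16.1 to 24.3). This peak ranked first by fold among the 632 peaks of chromosome 3, and position 8 among all 9717. By the number of tags it ranked much lower, at 203 in the list and 10 on chromosome 3.

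Weaker TBC1D5 peaks lay on either side of it. The 3′ peak, from 17414276 to 17414589, was 106 kb away and had 37 tags over 3.65, a fold of 8.17 (5.82 to 11.2). It was the only one of the 8 that stood on the lowest background in the list, 3.65 tags, a value that 1859 peaks (19.1%) share and that was taken as the caller's genome-wide background. The 5′ peak, from 17771812 to 17772122, lay 252 kb from the middle one and 23.1 kb from the 5′ end of the window. Its pileup was 22 tags over 4.05 and its fold 4.55 (2.93 to 6.79), the lowest fold of the 8, and its 22 tags were below the list's median of 25. The interval of the middle peak did not overlap that of either neighbour, whereas the intervals of the 5′ and 3′ peaks overlapped each other.

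The TBC1D5 peaks were spread out rather than adjacent, and counts in so long a window need the background beside them. The window held 4.94 peaks per Mb, against 3.25 per Mb over chromosome 3. When chromosomes 1 to 22 and X were tiled with segments of the same length, 63.2% of 4779 tiles held at least 1 summit, 28.6% held 3 or more and 31.5% held a summit of fold 5 or more. Holding 3 or more summits was therefore not rare for tiles of this size, although most tiles held fewer. The next peaks beyond the window were also of some strength. One lay 107 kb past the 3′ end with 69 tags over 4.65, a fold of 12.4 (9.67 to 15.6), and one 138 kb past the 5′ end with 35 tags over 3.72, a fold of 7.62 (5.37 to 10.5).

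The 5 autophagy genes had 1 peak each, in windows of 31 to 57 kb. All 5 of these peaks had a fold of 5 or more. Of 58148 tiles of 50 kb, 12.8% held a summit and 3.47% held one of that fold. These shares are printed as background only, since the genes were chosen from the list and tiles also cover sequence without genes.

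ULK1, the initiating kinase, had the widest peak and the highest background of the 8. In its window (hg19 chromosome 12, 132369000 to 132418000, plus strand) the peak ran from 132380597 to 132381273, 677 bp, with the summit 12.1 kb from the 5′ end. There were 116 tags over 15.2, a fold of 7.21 (5.97 to 8.64). The pileup ranked 119 among all peaks and the width 129, whereas the fold ranked only 706. The nearest other summit was 553 kb away.

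WIPI1, the lipid-binding effector, had the narrowest peak and the lowest fold of the 5 autophagy genes. In the window from 66407000 to 66464000 on chromosome 17 (hg19, minus strand) it extended over 181 bp, from 66453910 to 66454090, and its summit was 10.0 kb from the 5′ end. The 46 tags over a background of 8.10 gave a fold of 5.17 (3.81 to 6.85), at rank 1898. Its width ranked 7559 of 9717, below the list's median of 246 bp.

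The ATG8 family members had peaks of similar tag number. For GABARAPL1 (window on chromosome 12 from 10355000 to 10386000, hg19, plus strand) the peak from 10364784 to 10365216 had its summit 9.98 kb from the 5′ end. Its 80 tags over a background of 9.31 gave a fold of 7.86 (6.25 to 9.75), at rank 540. For MAP1LC3B (chromosome 16, 87415000 to 87449000, hg19, plus strand) the peak ran from 87421694 to 87422238. Its summit was 7.02 kb from the 5′ end of the window, the shortest such distance of the 8. Its 87 tags stood over 7.64, a fold of 10.2 (8.18 to 12.5), at rank 4 of the 188 peaks on chromosome 16. The intervals of the 2 genes overlapped.

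SQSTM1, the cargo receptor, had the largest pileup of the 8. The peak lay from 179245962 to 179246329 in the window from 179223000 to 179276000 on chromosome 5 (hg19, plus strand), 368 bp wide, with 132 tags over a background of 11.2. The fold was 10.9 (9.16 to 12.9), at rank 163 by fold and 83 by pileup. Its summit lay 23.2 kb from the 5′ end of the window, farther in than those of the other 4 autophagy genes. In RefSeq (GRCh38.p14) the last of the 3 SQSTM1 starts is 14.5 kb downstream of the first. Which start lies nearest to the peak was not analysed here.

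Set side by side by fold, the autophagy genes ran from SQSTM1 and MAP1LC3B through GABARAPL1 and ULK1 to WIPI1. The intervals of neighbours in this order overlapped, which does not test whether they differ. The interval of SQSTM1 was separate from those of ULK1 and WIPI1, and that of MAP1LC3B from that of WIPI1. The middle TBC1D5 peak lay above the intervals of all 5.

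**Figure D2:**
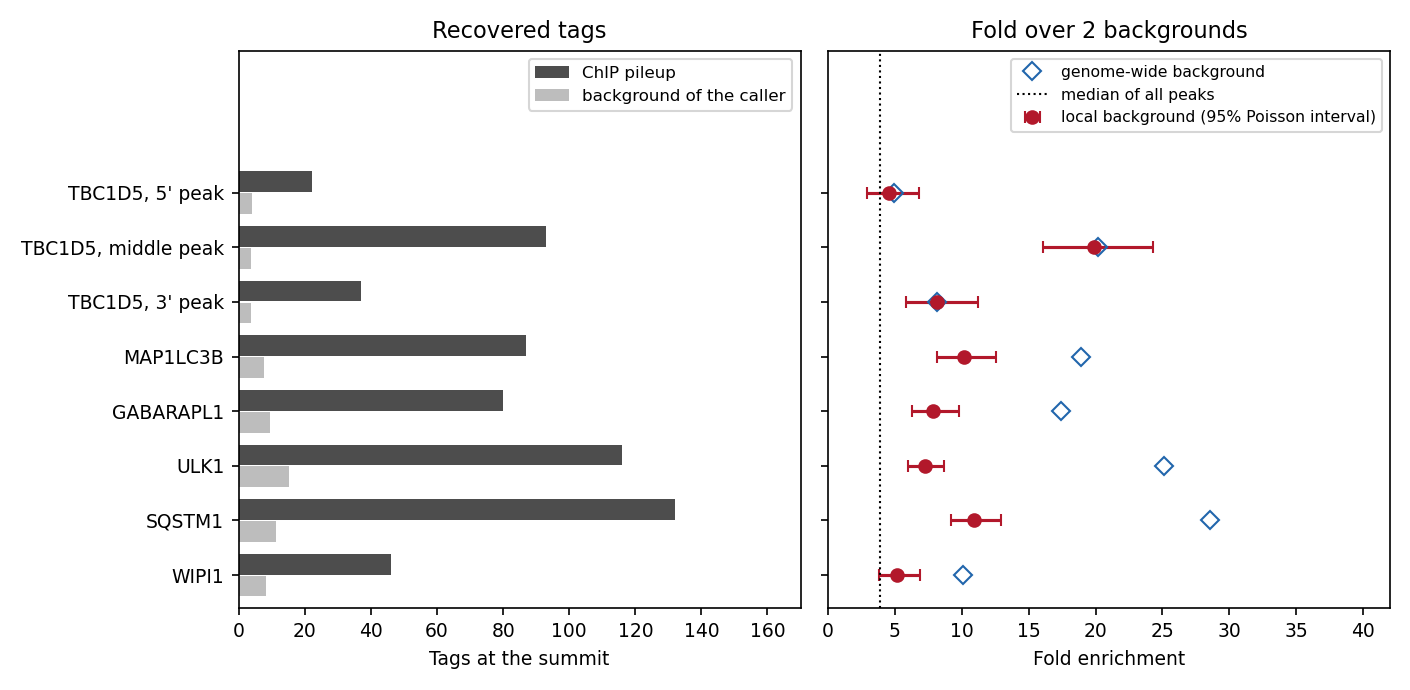
ChIP pileup and background of each of the 8 peaks in tags (left, bars from 0) and fold enrichment (right), with circles and 95% Poisson intervals for the local background, diamonds for the genome-wide background and a dotted line at the median fold of all 9717 peaks, 3.88. The circle and diamond lie close together for TBC1D5 and apart for the other genes, where the background is 7.64 to 15.2 tags.

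The order by fold depended on the background. At the 5 autophagy peaks the local background was 2.09 to 4.17 times the genome-wide level of 3.65 tags, with the lowest ratio at MAP1LC3B and the highest at ULK1. At the 3 TBC1D5 peaks it was 1.00 to 1.11 times that level. Over the genome-wide background SQSTM1 would have the highest fold, 28.6 (24.0 to 33.9), followed by ULK1 with 25.2 (20.8 to 30.1) and the middle TBC1D5 peak with 20.2 (16.4 to 24.7). These 3 intervals overlapped, so on this scale the interval of the TBC1D5 peak no longer stood apart. It met that of SQSTM1 only narrowly, and overlap of intervals does not test whether peaks differ. On the same scale MAP1LC3B had a fold of 18.9, GABARAPL1 17.4 and WIPI1 10.1. The labels do not say which library the caller took this background from, and what raised it at the 5 genes was not tested.

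Compared with all peaks, the 8 were mostly tall. Their median fold was 8.01, against 3.88 for the whole list, and their median pileup was 83.5 tags against 25. A fold of 5 or more was reached by 7 of the 8, against 22.1% of the list, and a fold of 10 or more by 3 of the 8, against 2.26%. These 3 were the middle TBC1D5 peak, SQSTM1 and MAP1LC3B. The −log10 q was 5 or more in all 8, against 55.6% of the list. This measure, the caller's significance after correction for multiple tests, was 10 or more in 7 of the 8 (25.5% of the list). It ran from 6.43 at the 5′ TBC1D5 peak to 88.3 at the middle one. The median width was 400.5 bp, against 246 bp. Fold, q and width all derive from the same pileup and are not separate evidence.

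**Figure D3:**
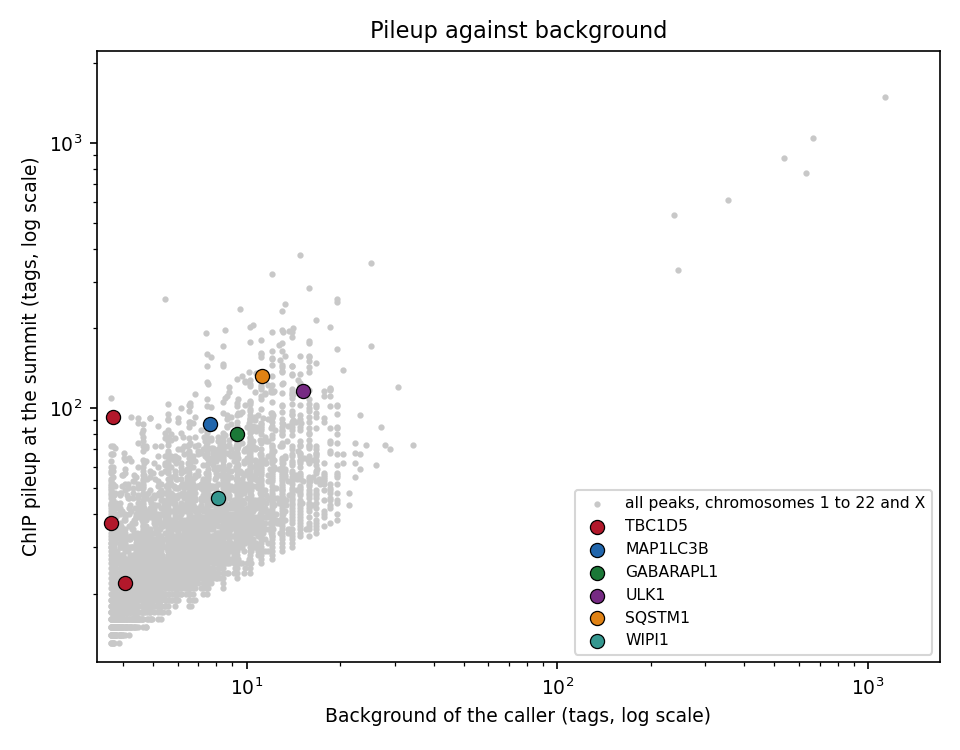
ChIP pileup (y axis, tags, log scale) against the caller's background (x axis, tags, log scale) for the peaks on chromosomes 1 to 22 and X (grey) and the 8 peaks of the 6 genes (coloured). The TBC1D5 points lie at the left edge, at backgrounds of 3.65 to 4.05 tags, and the 5 autophagy genes lie further right.

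No summit lay close outside a window. Of the summits just outside, the nearest was 47.2 kb beyond the 5′ end of the WIPI1 window, with 22 tags and a fold of 3.49 (2.25 to 5.21). The next lay 92.2 kb beyond its 3′ end, with a fold of 4.16 (2.97 to 5.67). Around GABARAPL1 the nearest outside summits were 175 kb and 159 kb away, with folds of 4.24 and 3.19. Those around MAP1LC3B, SQSTM1 and ULK1 lay at least 389 kb away. Just inside, the MAP1LC3B and GABARAPL1 summits lay within 10 kb of a window end, and the WIPI1 summit lay 10.01 kb from one.

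Other genes share these stretches, and a summit in a window is not assigned to the gene that names it. Among protein-coding RefSeq genes (GRCh38.p14) overlapping or within 10 kb of the members, FBXO31 and ZCCHC14 neighbour MAP1LC3B and PUS1 neighbours ULK1. MGAT4B, LTC4S and MRNIP neighbour SQSTM1, and ARSG and PRKAR1A neighbour WIPI1. Noncoding RNA genes also lie near MAP1LC3B, ULK1, SQSTM1 and WIPI1, and a pseudogene near SQSTM1. GABARAPL1 had only its antisense RNA GABARAPL1-AS1, and TBC1D5 only pseudogenes and a long noncoding RNA. Without an hg19 annotation, the exon, intron or promoter position of each summit was not determined. Further autophagy and retromer genes were not analysed here for the same reason.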

How the data were processed

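One peak list in hg19, from the FLAG library, was analysed. The submitters' processing notes name Trimmomatic, HISAT2 and MACS2. For versions, settings, read filters, peak threshold and control library, the sources used here name none. The deposited list gives for each peak a fold enrichment (a ratio), a −log10 p-value, a −log10 q-value, a summit offset and a score derived from q. The smallest −log10 q was 1.31.

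The pileup and the background were recovered from the deposited fold and −log10 p-value, since MACS2 adds 1 tag to both before it divides them and takes p from the upper tail of a Poisson distribution. In all 9717 peaks this returned the −log10 p-value within 0.001. Tested on simulated data, it returned the exact pileup, and the background within 0.01 tags, for 2000 of 2000 peaks. The simulated peaks were made with the same formula, so they check the solving step and not the formula. They reached neither the ULK1 background of 15.2 tags nor the list's highest pileup of 1488 tags. The smallest pileup was 13 tags. Where the background was the genome-wide one the smallest fold was 3.01, so weaker sites on that background could not be listed. Over the whole list the lowest deposited fold was 1.22. Sequenced tags are not independent molecules. The members, windows and gene lists were chosen with earlier results of these data known. All 6 genes and all of their peaks are named. Starts and summits count from 1. Python 3.11.15, SciPy 1.17.1 and pandas 2.3.3 were used. Alternatives were stricter peak thresholds, other windows, overlap in place of summits, merged peaks and other ways of taking the fold.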

Additional observations from a re-analysis of the deposited data

How the results depend on the processing

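All 21 alternative counts of peaks or genes were within 1.5 times of those reported, a loose limit for counts this small. Some lay exactly at it. The 3 TBC1D5 peaks became 2 at a −log10 q of 10 or more or a fold of 5 or more. The 6 genes with a peak became 4 with windows narrowed by 10 kb. The 8 peaks became 7 at a −log10 q of 10 or more or a fold of 5 or more, where the 5′ TBC1D5 peak was lost, and 9 with windows widened by 50 kb. With windows narrowed by 10 kb, 6 peaks in 4 genes were left, without those of MAP1LC3B and GABARAPL1. The WIPI1 summit, 10.01 kb from its window end, was only just kept, and the GABARAPL1 summit, at 9.98 kb, was only just lost. The highest fold of a window left its interval in 6 of 12 alternatives. Over the genome-wide background the value rose at MAP1LC3B, GABARAPL1, ULK1, SQSTM1 and WIPI1, to 10.1 to 28.6. Without the pseudocount of 1 tag, the middle TBC1D5 peak also rose above its interval. No paired analysis was possible because there was 1 immunoprecipitated library, which also means that no replicate could be left out.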
